A study of Mus musculus with 11 samples.

Results

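This account follows 42 genes of the non-neural germ layers in mouse embryonic stem cells (ESCs): transcription factors, signals and receptors of the primitive streak and mesoderm, and transcription factors and products of definitive and extraembryonic endoderm. The genes are a list of symbols with known roles, and the rule uses no measured value, although they were put together with earlier results of these data known. All 42 were found among the 19935 genes of the array that carry a single gene symbol. Expression was measured on 11 one-colour arrays of total RNA from cells in 4 groups. The groups were Bmpr1a-/- cells after 3 days in N2B27 (n = 3), E14 control cells after 3 days in N2B27 (n = 3), Bmpr1a-/- cells in ESC medium (n = 2, numbered 2 and 3) and E14 control cells in ESC medium (n = 3). E14, which the labels call wild type, is the control line. The product of Bmpr1a is one of the receptors through which cells sense bone morphogenetic proteins (BMPs). N2B27 is a medium without serum, used to let ESCs exit pluripotency. The labels name the mutant lines C1-6, Fr124 and Fr88 without saying which line is on which array. Whether replicate arrays stem from independent cultures is not stated, and p-values then reflect only the spread among these arrays, which may be technical.

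In the gastrulating embryo, cells of the epiblast pass through the primitive streak and become mesoderm or definitive endoderm under Nodal, WNT and BMP signals, while cells that receive none of these tend to a neural fate. Extraembryonic endoderm arises earlier, from the inner cell mass, and is marked by GATA factors and later by secreted carriers such as alpha-fetoprotein. ESC cultures can make all of these cell types when given the matching signals or when aggregated. The question put to these arrays was whether any of these lineages appeared in N2B27 in cells of either genotype.

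The deposited log2 values are centred gene by gene, which keeps differences between arrays and loses the brightness of a gene. It was therefore not possible to say that a gene was silent. Precision is limited by how few arrays there are. Differences are log2 differences with the standard error (SE) of limma, a linear model fitted over all genes and all 4 groups. A gene was called when its Benjamini-Hochberg adjusted p over all genes tested was under 0.05. In the arrays of bulk RNA, fewer cells of a type and less RNA per cell cannot be told apart.

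Bmpr1a read 0.15, -0.14 and -0.05 in Bmpr1a-/- cells in N2B27, against 0.61, 0.68 and 0.76 in control cells there, and -0.03 and 0.00 in Bmpr1a-/- cells in ESC medium, against 0.37, 0.16 and 0.25 in control cells. Mutant minus control was -0.70 in N2B27 (SE 0.09, adjusted p = 0.00211) and -0.27 in ESC medium (SE 0.10, adjusted p = 0.145). The mutant arrays also differed from all control arrays in the Y-linked gene Eif2s3y, at -3.73 to -3.54 against 0.37 to 0.72, and in Hprt, a purine salvage gene, at -0.13 to 0.92 against -5.22 to -4.47. Genotype and cell line therefore cannot be told apart. The list holds no gene of the X or Y chromosome. Hand2 and Foxf1 lie on chromosome 8, whose 955 genes had a median difference of 0.17 between genotypes in N2B27 and 0.12 in ESC medium. Mutant replicate 2 in N2B27 stood apart from the other arrays of its group, at 0.185 for the root mean square of its deviations over all genes, against 0.0774 to 0.155 on the other 10 arrays.

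**Figure D1:**
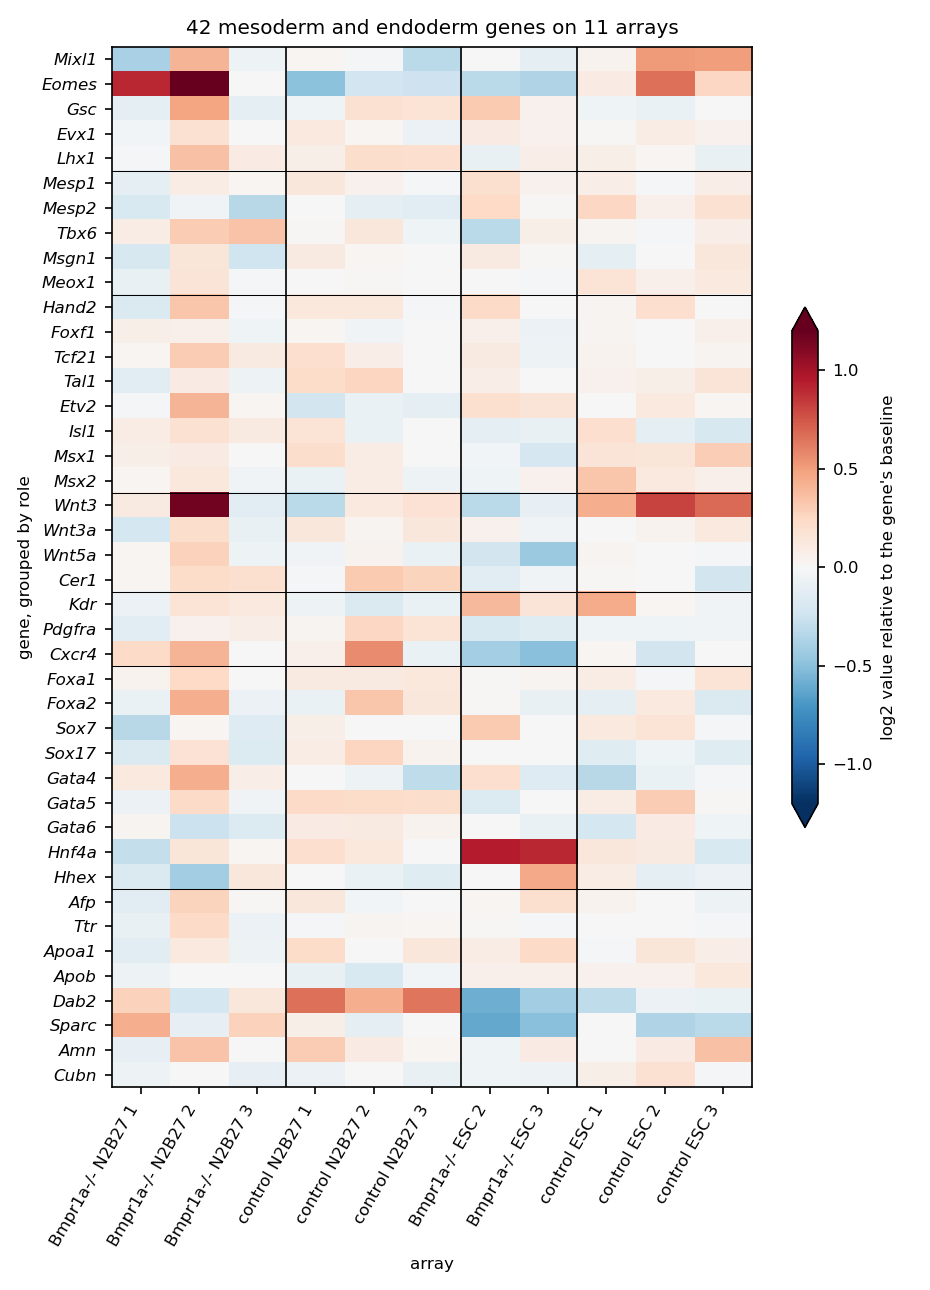
Log2 values relative to each gene's baseline for the 42 genes (rows, grouped by role) on the 11 arrays (columns, by group and replicate number); red is above and blue below the baseline, and colours saturate at the ends of the scale. Most rows are pale throughout, Hnf4a is red on both Bmpr1a-/- arrays in ESC medium, and Bmpr1a-/- replicate 2 in N2B27 is the reddest column, holding the highest value of 16 genes.

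Across the 42 genes, values moved about as much as those of all genes tested. The range over all 11 arrays had a median of 0.463 for the 42 genes and 0.495 for all genes tested, of which 46.3% had a range under 0.463. The SD within groups had a median of 0.1284 for the 42 genes and 0.1145 for all genes. There were 33 genes that were called in no comparison, and 22 of these stayed within a range of 0.5, as the plot of all values by array shows. Wnt3 had the widest range among them, at 1.48. The replicate numbered 2 of the mutant cells in N2B27 gave the highest value of its group for 35 of the 42 genes, or 83.3%, against 50.9% of all genes tested. It gave the highest value of all 11 arrays for 16 of the 42, or 38.1%, against 20% of all genes. Calls that changed without this array are stated below, but many values of genes not called are given only with it.

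Whether the lineages appear when mutant cells leave ESC medium was addressed by Bmpr1a-/- cells in N2B27 (n = 3) against the same cells in ESC medium (n = 2). Of the 42 genes, 6 rose and 2 fell. These 8 genes make 19%, against 25.2% of all 19935 genes tested, of which 14.9% were called higher and 10.3% lower. Eomes, Tbx6, Wnt5a, Cxcr4, Dab2 and Sparc rose, and Mesp2 and Hnf4a fell, while 34 genes did not pass. Without mutant replicate 2 in N2B27, 5 of the 42 rose and 4 fell. Over all genes 3339 rose and 2617 fell in that fit, against 2971 and 2047 with all arrays. Leaving out either mutant array in ESC medium left 1 array in that group. Fewer genes were then called, both of the 42 and of all genes. The median difference of the 42 genes was 0.03, and that of all genes was 0.01. The 95% interval of the difference had its upper limit under 1 for 38 of the 42 genes and under 0.5 for 32. These are 90.5% and 76.2%, against 93.2% and 79.4% of all genes.

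Control cells in N2B27 (n = 3) against control cells in ESC medium (n = 3) address the same question for the control line. Here 1 gene, Dab2, rose and 1 gene, Apob, fell. Dab2 and Apob, the calls with all arrays, make 4.76% of the 42 genes, against 26.1% of all genes tested, of which 12.8% were called higher and 13.3% lower. The median difference was 0.02 for the 42 genes and for all genes. With all arrays, the upper limit of the 95% interval was under 1 for 41 genes and under 0.5 for 38, or 97.6% and 90.5%, against 95.8% and 84.4% of all genes. At an unadjusted p under 0.05 in limma, 10 of the 42 genes, or 23.8%, passed in each genotype, against 34.3% of all genes in mutant cells and 35% in control cells. Mutant replicate 2 in N2B27 enters the shared estimate of the spread. Without it, 2 of the 42 rose in control cells (Dab2 and Sox17) and 6 fell (Mixl1, Eomes, Mesp2, Etv2, Wnt3 and Apob). Over all genes 3006 rose and 3038 fell in that fit, against 2554 and 2651 with all arrays.

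**Figure D2:**
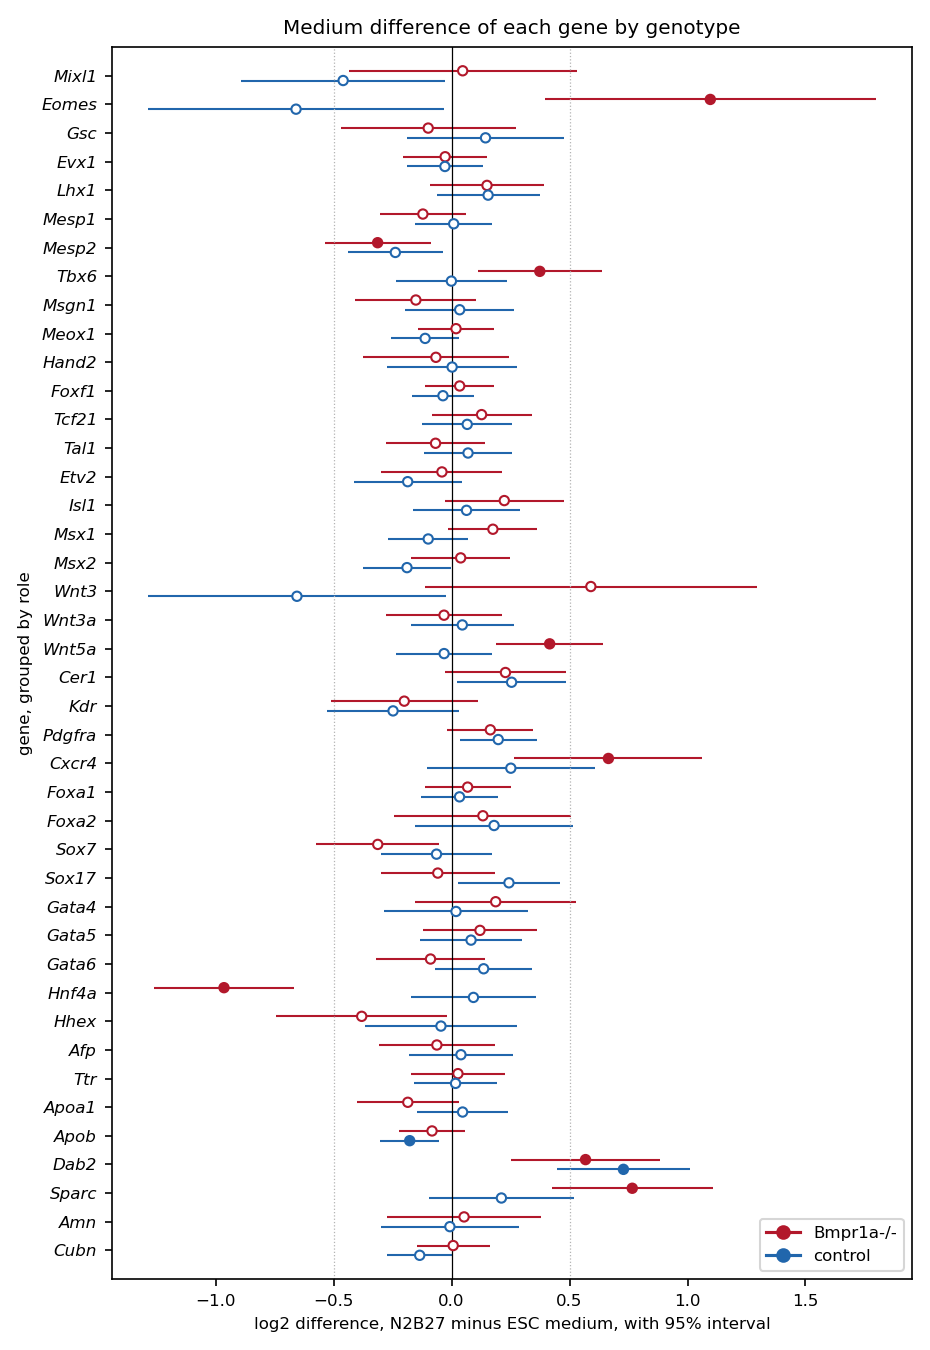
Log2 difference between N2B27 and ESC medium for each of the 42 genes (rows), in Bmpr1a-/- cells (red, upper) and control cells (blue, lower), with 95% intervals as lines; filled points passed an adjusted p of 0.05, and dotted lines mark -0.5 and 0.5. Points lie close to 0 for most genes, with 8 filled in Bmpr1a-/- cells and 2 in control cells.

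Among the transcription factors of the streak and the organiser, Eomes was the gene with the largest difference. Eomes encodes a T-box factor needed for definitive endoderm and for the exit of mesoderm from the streak, and it is also expressed in trophoblast stem cells. It read 0.91, 1.35 and 0.00 in Bmpr1a-/- cells in N2B27, against -0.32 and -0.37 in Bmpr1a-/- cells in ESC medium. The control arrays read -0.50, -0.23 and -0.25 in N2B27, against 0.10, 0.66 and 0.25 in ESC medium. The mutant groups did not overlap and neither did the control groups, but they lay in opposite order. The difference between media was 1.10 (SE 0.31, adjusted p = 0.0276) in mutant cells and -0.66 (adjusted p = 0.123) in control cells. In mutant cells the call was lost without mutant replicate 1 in N2B27 (1.02, adjusted p = 0.0722) and without mutant replicate 2 (1.12, adjusted p = 0.126) or 3 (1.08, adjusted p = 0.128) in ESC medium. It held without mutant replicate 2 in N2B27 (0.80, adjusted p = 0.0493). It was lost with array weights (0.53, adjusted p = 0.124), with the compared groups alone and after quantile normalization. In control cells it passed without mutant replicate 2 (adjusted p = 0.0467) or 3 (adjusted p = 0.015) in N2B27. The control difference also passed with the compared groups alone and with array weights.

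The other genes of this group did not pass in either genotype. Mixl1, a homeobox gene switched on in the nascent streak, read -0.39, 0.41 and -0.06 in mutant cells in N2B27, against -0.01 and -0.11 in mutant cells in ESC medium. It read 0.02, -0.02 and -0.32 in control cells in N2B27, against 0.05, 0.51 and 0.50 in control cells in ESC medium. The control groups did not overlap, and the difference there was -0.46 (SE 0.19, adjusted p = 0.119), which passed without mutant replicate 2 in N2B27 (adjusted p = 0.0403). Gsc, the organiser homeobox gene, differed between media by -0.10 (95% interval -0.47 to 0.27) in mutant cells and 0.14 (-0.19 to 0.48) in control cells. Evx1, a homeobox gene of the posterior streak, differed by -0.03 in each genotype. Lhx1, which the head organiser and lateral mesoderm use, differed by 0.15 in each.

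Of the 5 transcription factors of nascent and paraxial mesoderm, Tbx6 rose and Mesp2 fell in mutant cells, and 3 did not pass. Tbx6, a T-box gene that directs progenitors to paraxial mesoderm and away from neural tissue, read 0.09, 0.30 and 0.34 in mutant cells in N2B27, against -0.33 and 0.07 in ESC medium. The groups did not overlap, but 0.09 and 0.07 lay next to each other. The difference was 0.37 (SE 0.12, adjusted p = 0.041), and it fell to 0.18 (adjusted p = 0.401) without mutant replicate 2 in ESC medium. The call was also lost without mutant replicate 2 (adjusted p = 0.0782) or 3 (adjusted p = 0.121) in N2B27, without control replicate 1 or 3 in N2B27, and without any of the control arrays in ESC medium (adjusted p = 0.0534 to 0.0587 over these 5). The compared groups alone and quantile normalization also ended the mutant call. In control cells Tbx6 read 0.01, 0.14 and -0.05 in N2B27, against 0.03, -0.01 and 0.08 in ESC medium.

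Mesp2, a basic helix-loop-helix gene of somite segmentation, read -0.18, -0.04 and -0.33 in mutant cells in N2B27, against 0.24 and 0.02 in ESC medium. Control cells gave 0.00, -0.10 and -0.12 in N2B27, against 0.25, 0.06 and 0.18 in ESC medium. The value was lower in N2B27 in both genotypes, with no overlap. The difference was -0.31 (SE 0.10, adjusted p = 0.0454) in mutant cells and -0.24 (adjusted p = 0.0823) in control cells. In mutant cells the call was lost on leaving out any 1 array other than mutant replicate 3 in ESC medium and mutant replicate 2 in N2B27 (adjusted p = 0.0502 to 0.35), with -0.20 at the smallest. In control cells Mesp2 passed without mutant replicate 2 in N2B27 (adjusted p = 0.0481), with the compared groups alone and with array weights. Mesp1, a marker of early cardiac mesoderm, Msgn1, of the presomitic mesoderm, and Meox1, of somites, differed by -0.12, -0.15 and 0.02 in mutant cells and by 0.01, 0.03 and -0.11 in control cells. Of these 3 genes, Msgn1 passed in mutant cells without mutant replicate 2 in N2B27 (-0.27, adjusted p = 0.0397).

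No transcription factor of blood, heart or mesenchyme was called in either genotype. At an unadjusted p under 0.05 in limma, 0 of these 8 genes passed in mutant cells and 1, or 12.5%, in control cells, where 34.3% and 35% of all genes did. Differences ran from -0.07 to 0.22 in mutant cells and from -0.19 to 0.07 in control cells. The 95% interval lay within -0.5 and 0.5 for all 8 genes in both. Of all 19935 genes, 12809 had such an interval in mutant cells and 13665 in control cells. Tal1, needed for blood, read -0.13, 0.10 and -0.06 in mutant cells in N2B27, against 0.08 and 0.00 in ESC medium, and differed by -0.07. Etv2, the master gene of endothelial and blood progenitors, differed by -0.04 in mutant cells and -0.19 in control cells, where it passed without mutant replicate 2 in N2B27 (adjusted p = 0.0334). Hand2, of heart and limb, and Foxf1, of lateral plate mesoderm, differed by -0.07 and 0.03 in mutant cells. Tcf21, of mesenchyme around organs, and Isl1, of the second heart field and motor neurons, differed by 0.13 and 0.22 there. Msx1 and Msx2 are homeobox genes that BMP signals switch on in many embryonic tissues. In mutant cells they differed by 0.18 (95% interval -0.01 to 0.36) and 0.04 (-0.17 to 0.25), and in control cells by -0.10 (-0.27 to 0.07) and -0.19 (-0.38 to -0.00).

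Of the secreted signals, Wnt5a rose in mutant cells. Wnt5a acts mainly outside the beta-catenin pathway and drives elongation of the body axis. It read 0.03, 0.28 and -0.06 in mutant cells in N2B27, against -0.22 and -0.45 in ESC medium, while all 6 control arrays lay between -0.08 and 0.04. The difference was 0.42 (SE 0.10, adjusted p = 0.0133). It was not called without mutant replicate 3 in ESC medium (0.30, adjusted p = 0.139) or with the compared groups alone (adjusted p = 0.0872). The mutant arrays in ESC medium were thus the lowest of the 11, and those in N2B27 lay around the control arrays.

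Wnt3, the WNT ligand that starts the streak in the mouse embryo, gave the widest spread of any uncalled gene. It read 0.11, 1.15 and -0.12 in mutant cells in N2B27, against -0.32 and -0.10 in ESC medium. Control cells gave -0.32, 0.11 and 0.17 in N2B27, against 0.43, 0.81 and 0.68 in ESC medium. The 1.15 of mutant replicate 2 was the highest value of all arrays, and the control groups did not overlap. The differences were 0.59 (SE 0.32, adjusted p = 0.229) in mutant cells, or 0.20 without replicate 2, and -0.66 (SE 0.28, adjusted p = 0.127) in control cells, with a call in control cells without mutant replicate 2 in N2B27 (adjusted p = 0.00845) and with the compared groups alone (adjusted p = 0.0204). Wnt3a, which maintains paraxial mesoderm progenitors, differed by -0.03 in mutant cells and 0.05 in control cells. Cer1, a secreted antagonist of Nodal, BMP and WNT made by anterior visceral endoderm, differed by 0.23 (adjusted p = 0.201) in mutant cells and 0.25 (adjusted p = 0.105) in control cells. In control cells it passed without control replicate 1 in N2B27 (0.36, adjusted p = 0.0231).

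Cxcr4, the chemokine receptor used to sort definitive endoderm, which many other cells also carry, rose in mutant cells. It read 0.23, 0.41 and 0.00 in mutant cells in N2B27, against -0.41 and -0.50 in ESC medium, a difference of 0.66 (SE 0.18, adjusted p = 0.0206). The control arrays read 0.06, 0.57 and -0.08 in N2B27, against 0.03, -0.22 and -0.01 in ESC medium, where the groups overlapped. Leaving out mutant replicate 2 (adjusted p = 0.0872) or 3 (adjusted p = 0.123) in ESC medium ended the mutant call, as did quantile normalization (adjusted p = 0.105). The value was 0.57 (adjusted p = 0.0477) without mutant replicate 2 in N2B27. Kdr, a receptor of vascular endothelial growth factor that marks lateral mesoderm, differed by -0.20 in mutant cells and -0.25 in control cells. Pdgfra, a growth factor receptor of mesoderm and primitive endoderm, differed by 0.16 in mutant cells and 0.20 in control cells. In control cells Pdgfra passed with the sample number as a block (adjusted p = 0.0469), without control replicate 1 (0.26, adjusted p = 0.0369) and without mutant replicate 1 (adjusted p = 0.0393) in N2B27.

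Of the 9 transcription factors of endoderm, Hnf4a was the only one called in any comparison. It encodes a nuclear receptor of visceral endoderm, liver and gut. It read -0.29, 0.15 and 0.02 in mutant cells in N2B27, against 0.94 and 0.90 in mutant cells in ESC medium. In control cells it read 0.21, 0.13 and 0.01 in N2B27, against 0.13, 0.11 and -0.18 in ESC medium. The mutant arrays in ESC medium thus lay well above the other 9, which overlapped. The difference between media was -0.96 (SE 0.13, adjusted p = 0.000565) in mutant cells and 0.09 (adjusted p = 0.682) in control cells.

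In ESC medium Hnf4a was higher in mutant than in control cells, with a difference of 0.90 (SE 0.13, adjusted p = 0.00363). The interaction, here the mutant minus control difference in N2B27 less the same difference in ESC medium, was -1.06 (SE 0.18, adjusted p = 0.0172). These 3 differences share the 2 mutant arrays in ESC medium and are not independent. Without mutant replicate 2 in ESC medium the genotype difference was 0.88 (adjusted p = 0.0504) and the interaction -1.04 (adjusted p = 0.101). Without mutant replicate 3 there the interaction was -1.08 (adjusted p = 0.0676). The fall between media in mutant cells held in all 19 alternatives.

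**Figure D3:**
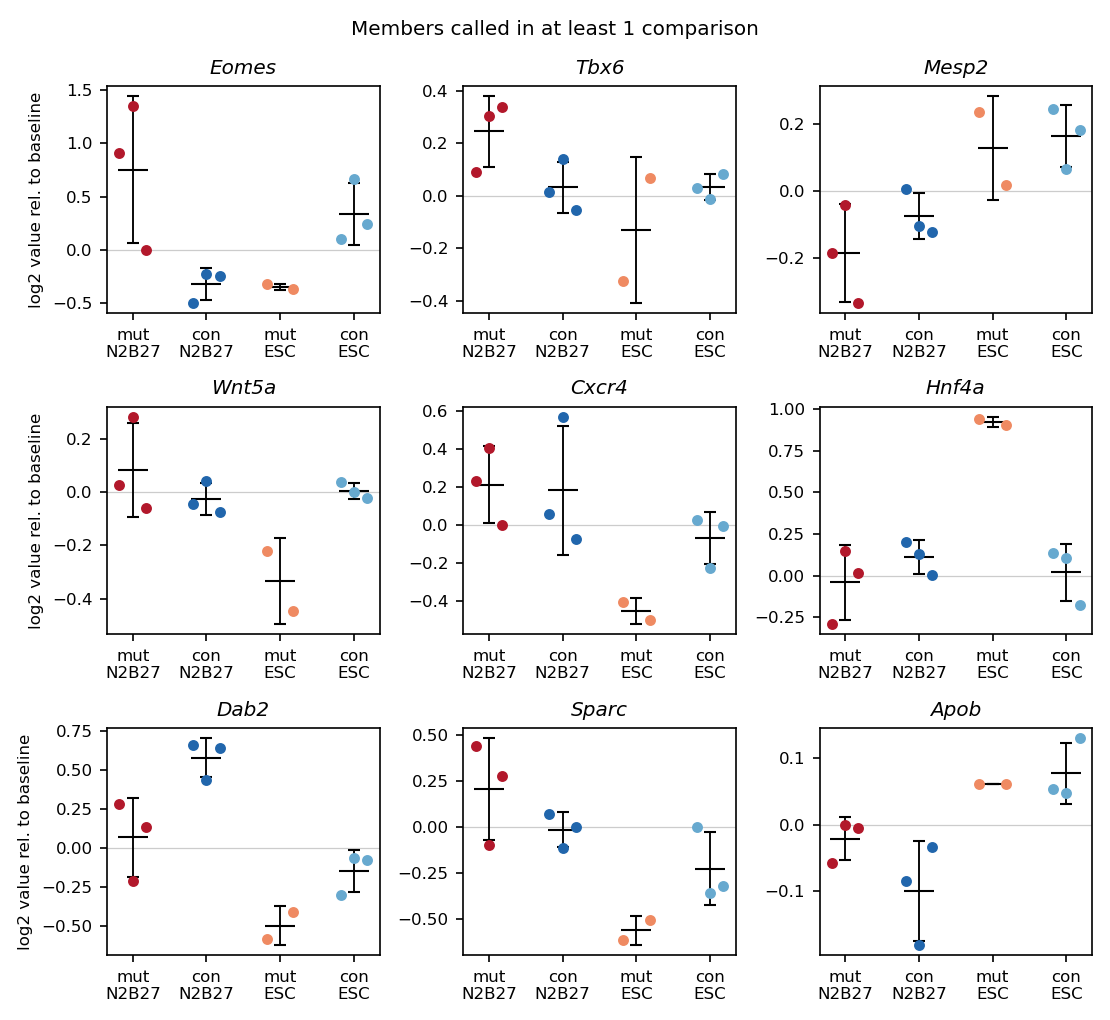
Log2 values relative to baseline of the 9 genes called in at least 1 comparison, in Bmpr1a-/- (mut) and control (con) cells in N2B27 and ESC medium; each point is 1 array, and bars are the group mean and SD (n = 3, 3, 2 and 3), on a vertical scale of its own for each gene. Hnf4a stands at 0.94 and 0.90 on the mutant arrays in ESC medium, and Dab2, Sparc, Cxcr4 and Wnt5a are lowest on those arrays.

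Foxa1 and Foxa2, forkhead factors that open endoderm enhancers, differed by 0.07 and 0.13 in mutant cells and by 0.03 and 0.18 in control cells. The mutant difference of Foxa2 was -0.04 without mutant replicate 2 in N2B27. Gata6, Gata4 and Gata5, zinc finger factors of which the first 2 specify primitive endoderm, differed by -0.09, 0.19 and 0.12 in mutant cells and by 0.14, 0.02 and 0.08 in control cells. For Gata6 the 95% interval ran from -0.32 to 0.14 in mutant cells and from -0.07 to 0.34 in control cells. Sox17, an HMG-box factor of definitive and extraembryonic endoderm, read -0.18, 0.18 and -0.16 in mutant cells in N2B27, against 0.01 and 0.00 in ESC medium. In control cells it read 0.09, 0.26 and 0.04 in N2B27, against -0.15, -0.05 and -0.15 in ESC medium, with no overlap.

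The Sox17 difference in control cells was 0.24 (SE 0.10, adjusted p = 0.0992). It passed with the sample number as a block (adjusted p = 0.0384) and without mutant replicate 2 in N2B27 (adjusted p = 0.0186). The compared groups alone and array weights also gave a call. Sox7, its relative in extraembryonic endoderm, differed by -0.31 (adjusted p = 0.0814) in mutant cells, called at -0.40 (adjusted p = 0.0227) without mutant replicate 2 in N2B27 and at -0.47 (adjusted p = 0.0389) without mutant replicate 3 in ESC medium. Hhex, a homeobox gene of anterior endoderm, differed by -0.38 (adjusted p = 0.125) there, and by -0.52 (adjusted p = 0.0349) without mutant replicate 3 in N2B27.

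Dab2 rose in N2B27 in both genotypes. It encodes an endocytic adaptor of extraembryonic endoderm and kidney that binds the receptor megalin. Averaged over its transcript clusters, the array's units for a gene or part of one, it read 0.28, -0.21 and 0.13 in mutant cells in N2B27, against -0.59 and -0.41 in ESC medium. The control arrays read 0.66, 0.44 and 0.64 in N2B27, against -0.30, -0.07 and -0.08 in ESC medium. The media did not overlap in either genotype. The difference was 0.57 (SE 0.14, adjusted p = 0.0138) in mutant cells and 0.73 (SE 0.13, adjusted p = 0.00215) in control cells. The control call held in all 19 alternatives, and the mutant call was lost without mutant replicate 2 in ESC medium (adjusted p = 0.128), with the compared groups alone (adjusted p = 0.0584) and after quantile normalization (0.37, adjusted p = 0.112).

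Only 1 of the 2 clusters of Dab2 carried this difference. Fitted alone, that cluster differed between media by 1.15 (SE 0.28, adjusted p = 0.0131) in mutant cells and 1.45 (SE 0.25, adjusted p = 0.00224) in control cells, and the other by -0.01 and 0.01. The second cluster stayed between -0.03 and 0.10 on all arrays. The annotation used here does not say which part of the gene each cluster covers. Lrp2, which encodes megalin and stood in the wider list of endoderm genes, rose by 2.78 (SE 0.29, adjusted p = 0.000124) in mutant cells and 2.24 (SE 0.26, adjusted p = 0.00024) in control cells. Cubn and Amn, which encode the cubilin receptor and its membrane partner, differed by 0.01 and 0.05 in mutant cells and by -0.13 and -0.01 in control cells, none called.

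Sparc, a matrix glycoprotein gene strong in parietal endoderm and also active in fibroblasts, rose in mutant cells. It read 0.44, -0.10 and 0.28 in mutant cells in N2B27, against -0.62 and -0.50 in ESC medium. Control cells gave 0.07, -0.12 and 0.00 in N2B27, against 0.00, -0.36 and -0.32 in ESC medium, with overlap. The difference was 0.77 (SE 0.15, adjusted p = 0.0046) in mutant cells and 0.21 (adjusted p = 0.335) in control cells. The mutant value was 0.71 (adjusted p = 0.0509) without mutant replicate 2 in ESC medium. Of 19 genes of fibroblasts and feeder cells, 4 rose and none fell in mutant cells, or 21.1%, against 25.2% of all genes. Tagln, at 2.60, and Acta2, at 2.45, were among them. Both were lowest on the mutant arrays in ESC medium, at -2.32 and -2.03 for Tagln and -1.88 and -1.90 for Acta2. In control cells 5 rose and 3 fell, or 42.1%, against 26.1% of all genes. The median value of these 19 genes lay between -0.01 and 0.09 on the mutant arrays in N2B27, against -0.06 on both in ESC medium, and between 0.04 and 0.08 on the control arrays in N2B27, against -0.02 to 0.00 in ESC medium. Tagln, a gene of smooth muscle and fibroblasts, was lower in mutant than in control cells in ESC medium, at -2.23 (adjusted p = 0.0059). The part of such cells in the rise of Sparc was not tested.

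Of the list's secreted products of visceral endoderm, Afp, Ttr, Apoa1 and Apob, only Apob was called, in control cells. Afp, the alpha-fetoprotein gene, differed by -0.06 in mutant cells and 0.04 in control cells. Ttr, which encodes the carrier transthyretin, differed by 0.03 and 0.02, and all arrays but mutant replicate 2 in N2B27, at 0.23, lay between -0.09 and 0.03. Apoa1, an apolipoprotein gene, differed by -0.19 in mutant cells and 0.05 in control cells. Apob, the structural protein gene of low-density lipoprotein, read -0.09, -0.18 and -0.03 in control cells in N2B27, against 0.05, 0.05 and 0.13 in ESC medium. It fell there, at -0.18 (SE 0.06, adjusted p = 0.0406). The call was lost on leaving out any 1 array other than control replicate 3 and mutant replicates 1 and 2 in N2B27 (adjusted p = 0.0524 to 0.153). In mutant cells Apob differed by -0.08 (adjusted p = 0.423).

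The sequences before the transcription starts of Hnf4a and Dab2 are shown because these were the genes called in more than 1 comparison, and each has 2 annotated starts that a value per gene does not separate. Each line gives the 250 bases before a start, 5′ to 3′ on the plus strand, from RefSeq on GRCm38.p6. Capitals mark matches on either strand to AGATAA of the GATA factors, TGTTTA of the forkhead factors, GTTAAT of the HNF1 factors, AGGTGT of the T-box factors, CTTTGA of the TCF/LEF factors or CAGAC of the SMAD factors. In 1 place, in the second window of Dab2, an HNF1 and a forkhead match overlap and form 1 run of capitals.
Hnf4a, first start, chr2:163506607-163506856: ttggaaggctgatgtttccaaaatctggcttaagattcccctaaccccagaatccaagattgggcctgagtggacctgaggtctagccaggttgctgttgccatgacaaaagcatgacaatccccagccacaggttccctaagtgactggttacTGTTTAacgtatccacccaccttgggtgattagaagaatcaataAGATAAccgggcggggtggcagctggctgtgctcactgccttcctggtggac
Hnf4a, second start, chr2:163546905-163547154: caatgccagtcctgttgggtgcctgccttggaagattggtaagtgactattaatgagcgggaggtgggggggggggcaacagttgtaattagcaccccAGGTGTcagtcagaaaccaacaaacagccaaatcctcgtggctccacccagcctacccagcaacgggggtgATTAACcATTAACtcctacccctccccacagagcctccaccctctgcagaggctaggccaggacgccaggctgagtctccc
Dab2, first start, chr15:6299539-6299788: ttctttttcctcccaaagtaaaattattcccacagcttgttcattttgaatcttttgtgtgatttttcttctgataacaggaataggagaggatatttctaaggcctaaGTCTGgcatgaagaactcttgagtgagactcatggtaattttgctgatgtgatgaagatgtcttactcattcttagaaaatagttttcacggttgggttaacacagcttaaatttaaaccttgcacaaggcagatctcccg
Dab2, second start, chr15:6386498-6386747: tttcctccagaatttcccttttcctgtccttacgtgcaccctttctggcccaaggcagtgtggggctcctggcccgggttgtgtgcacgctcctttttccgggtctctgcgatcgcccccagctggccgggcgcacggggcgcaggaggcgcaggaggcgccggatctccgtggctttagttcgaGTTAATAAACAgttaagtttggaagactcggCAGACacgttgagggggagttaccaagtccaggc

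The first window of Hnf4a held 1 forkhead and 1 GATA match, and the second held 2 HNF1 matches and 1 T-box match. The first window of Dab2 held 1 SMAD match, and the second held 1 forkhead, 1 HNF1 and 1 SMAD match. Such short motifs are common. Of all 32851 windows in the table, 9.99% held the GATA motif, 12% the forkhead, 6.43% the HNF1, 11.8% the T-box, 13.8% the TCF/LEF and 42.2% the SMAD motif. The 33 genes of the list that had a window had 38 windows, of which 5 held the GATA, 8 the forkhead, 9 the HNF1, 5 the T-box, 7 the TCF/LEF and 16 the SMAD motif. A match is a description of the letters and not evidence of binding.

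How the genotypes differ in these lineages after 3 days in N2B27 was addressed by Bmpr1a-/- (n = 3) against control cells (n = 3). Dab2 fell and no gene of the list rose, so 2.38% of the 42 were called, against 5.74% of all genes tested, with 4.1% called higher and 1.64% lower. At an unadjusted p under 0.05 in limma, 6 of the 42 passed, or 14.3%, against 19.3% of all genes. Dab2 was lower in mutant cells by 0.51 (log2 difference -0.51, SE 0.13, adjusted p = 0.0435). This difference shares its arrays with those between media. Its moving cluster alone differed by -1.05 (SE 0.25, adjusted p = 0.0409). The call was lost on leaving out any 1 array other than control replicate 1 in ESC medium and mutant replicate 1 in N2B27 (adjusted p = 0.0633 to 0.148), with -0.37 (adjusted p = 0.067) without mutant replicate 2 in N2B27. It was also lost with the compared groups alone (adjusted p = 0.119), with median centring (adjusted p = 0.0586) and without chromosomes 8, X and Y (adjusted p = 0.0561).

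Eomes was higher in mutant cells in N2B27 by 1.08 (SE 0.28, adjusted p = 0.0549), with no overlap, and passed with the sample number as a block (adjusted p = 0.0306). Without mutant replicate 3 in N2B27 it was 1.45 (adjusted p = 0.00391), without mutant replicate 2 it was 0.78 (adjusted p = 0.0971), and with array weights 0.46 (adjusted p = 0.195). Sox17 differed by -0.18 (adjusted p = 0.357), and by -0.30 (adjusted p = 0.0439) without mutant replicate 2 in N2B27. Msx1 and Msx2 differed by -0.04 (95% interval -0.21 to 0.13) and 0.06 (-0.13 to 0.24). Gata4, Gata6 and Foxa2 differed by 0.33, -0.21 and -0.03, none called. Differences of the 42 genes had a median of -0.01 and ran from -0.51 for Dab2 to 1.08 for Eomes.

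The same contrast in ESC medium, Bmpr1a-/- (n = 2) against control (n = 3), shows the state before the change of medium. Hnf4a rose and no gene of the list fell, so 2.38% were called, against 6.14% of all genes tested, with 3.09% called higher and 3.05% lower. At an unadjusted p under 0.05 in limma, 5 of the 42 passed, or 11.9%, against 17.8% of all genes. Msx1 read -0.03 and -0.20 in mutant cells, against 0.15, 0.15 and 0.30 in control cells, a difference of -0.32 (SE 0.08, adjusted p = 0.0571). Wnt3 differed by -0.85 (SE 0.32, adjusted p = 0.176), Wnt5a by -0.34 (adjusted p = 0.0915) and Eomes by -0.68 (adjusted p = 0.301), none called with all arrays. Without mutant replicate 2 in N2B27, Wnt3 (adjusted p = 0.0133) and Wnt5a (adjusted p = 0.0252) passed. The differences of the 4 signals ran from -0.85 to -0.02.

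Whether the response to medium differs between genotypes was tested by the interaction. Hnf4a was the only gene of the list that passed, again 2.38%, against 2.12% of all genes tested, with 1.57% called positive and 0.552% negative. At an unadjusted p under 0.05 in limma, 7 of the 42 passed, or 16.7%, against 13.7% of all genes. Eomes had the largest interaction, at 1.76 (SE 0.42, adjusted p = 0.0672). It passed with the sample number as a block (1.80, adjusted p = 0.0398) and without mutant replicate 3 in N2B27 (2.13, adjusted p = 0.0073). Wnt3 had 1.25 (adjusted p = 0.203), Wnt5a 0.45 (adjusted p = 0.155) and Sparc 0.55 (adjusted p = 0.246), the last called at 0.71 (adjusted p = 0.0498) without mutant replicate 2 in N2B27.

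Other genes of the same lineages, from wider lists, moved in both directions. Of 36 other streak and mesoderm genes, 5 rose and 6 fell in mutant cells in N2B27 against ESC medium. These make 30.6%, against 25.2% of all genes. In control cells 2 rose and 7 fell, or 25%, against 26.1% of all genes. Of these 36 genes, those that fell most in both genotypes are also active in ESCs. Lefty2, a Nodal antagonist gene, differed by -3.42 in mutant cells and -2.63 in control cells. Pecam1, an adhesion gene of endothelium and ESCs, differed by -2.03 in mutant cells and -2.58 in control cells, and Fgf17, a growth factor gene, by -1.69 in mutant cells and -1.92 in control cells. Tbx3, a T-box gene of the naive pluripotency network, differed by -2.07 in mutant cells and -1.62 in control cells. Flt1, a receptor gene of vascular endothelial growth factor, rose by 0.97 (SE 0.12, adjusted p = 0.000337) in mutant cells, against -0.32 (adjusted p = 0.0574) in control cells, with an interaction of 1.29 (SE 0.16, adjusted p = 0.00634). Flt1 read -0.80 and -0.68 in mutant cells in ESC medium, where it was called lower than in control cells. In N2B27 it read 0.31, 0.39 and -0.02 in mutant cells, against -0.37, -0.10 and -0.24 in control cells.

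Of 28 other endoderm genes, 7 rose and 3 fell in mutant cells, or 35.7%, against 25.2% of all genes. In control cells 2 rose and 4 fell, or 21.4%, against 26.1% of all genes. Beside Lrp2, the endoderm genes with the largest rises in mutant cells were Serpinh1, a collagen chaperone gene, at 1.11 and Lamb1, a laminin chain gene, at 1.10. Both were called lower in mutant than in control cells in ESC medium. Mutant cells there read -0.90 and -0.90 for Serpinh1 and -1.31 and -1.13 for Lamb1. In N2B27 Serpinh1 read 0.06, 0.21 and 0.38 in mutant cells, against 0.18, 0.20 and 0.44 in control cells. Lamb1 read -0.02, -0.35 and 0.00 in mutant cells in N2B27, against 0.41, 0.03 and 0.35 in control cells. Trh, the thyrotropin-releasing hormone gene, fell in control cells, at -3.94 (SE 0.52, adjusted p = 0.000502), against -1.16 (adjusted p = 0.199) in mutant cells. It was higher in mutant than in control cells in N2B27, at 2.48 (adjusted p = 0.025), and its interaction was 2.78 (adjusted p = 0.119). Nid1, another basement membrane gene, fell in both genotypes, at -1.73 in mutant cells and -1.49 in control cells. Apom, an apolipoprotein gene, read 1.32 and 0.59 in mutant cells in ESC medium, where it was called higher than in control cells. It fell in mutant cells, to -0.07, 0.05 and -0.11 in N2B27, while the control arrays lay between -0.04 and 0.09. The median difference of the 28 genes was 0.03 in mutant cells and 0.00 in control cells.

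Genes of other fates that such cultures can hold give the scale. All 15 naive pluripotency genes fell in N2B27 in both genotypes, with medians of -2.22 in mutant cells and -2.21 in control cells. Of 31 neural progenitor genes, 11 rose and 2 fell in mutant cells, or 41.9%, against 25.2% of all genes. In control cells 7 rose and 3 fell, or 32.3%, against 26.1% of all genes. Prom1, a gene of a membrane protein of neural stem cells and other epithelia, rose by 2.44 in mutant cells and 1.71 in control cells. Nes, the nestin gene, rose by 2.08 (adjusted p = 0.00103) in mutant cells, against -0.03 (adjusted p = 0.976) in control cells. Of 14 trophoblast genes, 4 rose and 2 fell in mutant cells, or 42.9%, against 25.2% of all genes. In control cells none rose and 3 fell, or 21.4%, against 26.1% of all genes. The keratin genes Krt18 and Krt8 were among the 4 that rose in mutant cells, at 2.18 and 1.94, and Eomes was another. The 2 that fell were Tfap2c, at -1.61, and Ascl2. Both keratin genes were called lower in mutant than in control cells in ESC medium. Krt18 read 0.42, -0.43 and 0.49 in mutant cells in N2B27, against -2.05 and -2.00 in ESC medium. Control cells gave 0.53, 0.14 and 0.67 in N2B27. Krt8 read 0.41, 0.16 and 0.46 in mutant cells in N2B27, against -1.57 and -1.62 in ESC medium. Control cells gave -0.26, -0.37 and -0.07 in N2B27. The median value of the 14 genes lay between 0.06 and 0.23 on the mutant arrays in N2B27, against -0.01 to 0.04 in ESC medium. The part of such cells in the value of Eomes was not tested. The plot of differences by gene list shows the 42 genes around 0. Their median absolute difference was 0.13 in mutant cells and 0.10 in control cells, against 0.14 and 0.12 for all genes. It was 0.22 and 0.14 for neural progenitor genes and 0.18 and 0.17 for trophoblast genes. Among the wider lists of the same lineages it was 0.16 and 0.16 for streak and mesoderm genes, and 0.31 and 0.14 for endoderm genes. No test compares the lists.

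**Figure D4:**
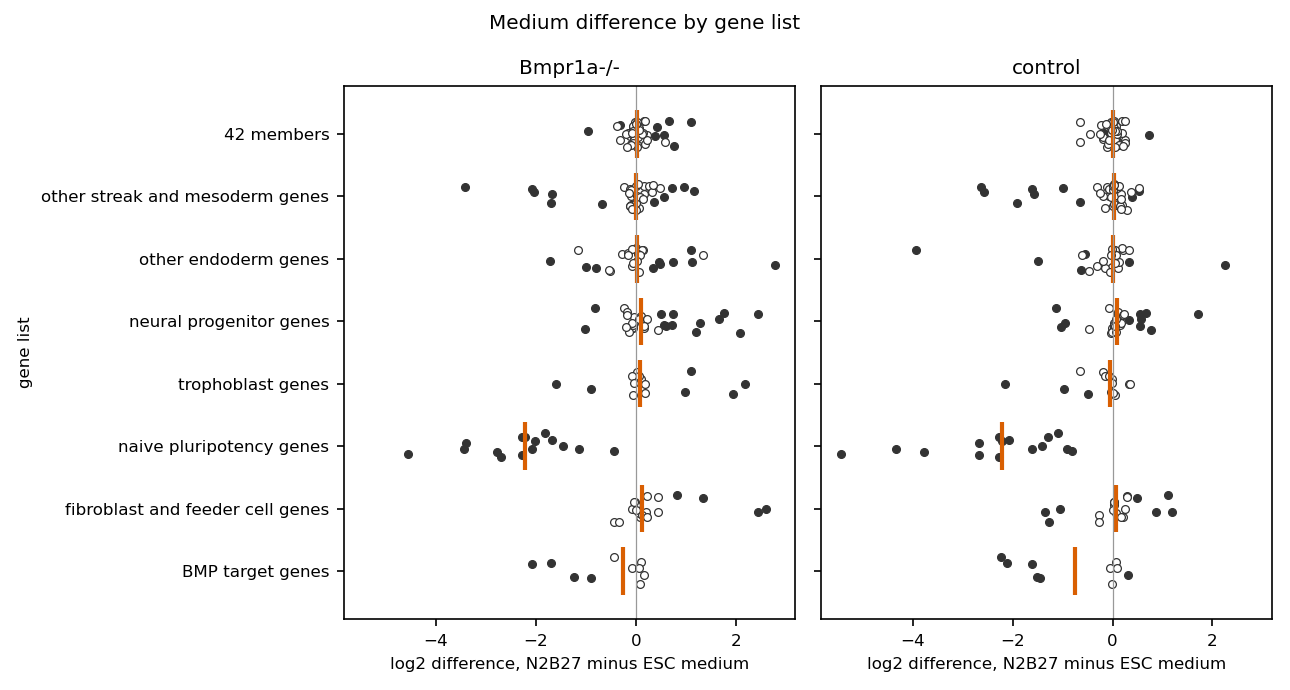
Log2 difference between N2B27 and ESC medium for each gene (points) of the 42 and of 7 other gene lists (rows), in Bmpr1a-/- cells (left) and control cells (right); filled points passed an adjusted p of 0.05 and orange bars are list medians, with points shifted vertically at random within a row. The 42 genes lie between -0.96 and 1.10 in Bmpr1a-/- cells and between -0.66 and 0.73 in control cells, and all naive pluripotency genes lie left of 0.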

How the data were processed

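Values deposited by the authors are log2 intensities of 28815 transcript clusters on 11 arrays. The submitters' processing notes name RMA and Expression Console 1.2. The log base was taken as 2 because RMA gives log2 values. Every cluster is centred on its own baseline, by a step not given in the sources used here, which leaves no way to filter dim probes. No scanner values were used, so background correction and slide could not be varied. In the platform annotation 21780 clusters carried 1 symbol, 1605 had several and 5430 had none. Clusters with 1 symbol were averaged per gene, which left 19935 genes, and 2 genes of the list, Dab2 and Foxf1, had 2 clusters each. Of the named clusters, 21689 matched RefSeq genes of GRCm38.p6, used for chromosomes only.

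Group means were fitted over the 4 groups with limma 3.58.1 in R 4.3.3 (7 residual and 3.02 prior degrees of freedom), two-sided, with Benjamini-Hochberg adjustment over all genes, after tests on simulated data. The list and the other gene lists were chosen with earlier results of these data known. The genes described array by array are those called in any comparison and a few uncalled ones, and from each other list up to 4 called genes with the largest differences in a comparison could be named, which admits Flt1 through the interaction. Msx1, Mixl1, Wnt3, Sox17 and Tal1 were given array by array, and the promoter motifs picked, after values were seen. For arrays that share a number, deviations from the group mean correlated at 0.256, 0.430 and 0.158 between genotypes in N2B27, and at 0.138, 0.181 and 0.131 between media in control cells. All exceed 0.1. The main fit took no pairs, and equal numbers were tied together only in the alternative with the number as a block. That pairing rests on the values and not on the labels. Mutant arrays in ESC medium share only numbers 2 and 3 with other groups. Their deviations correlated at 0.215 and 0.266 with mutant cells in N2B27, and at 0.0365 and 0.284 with control cells in ESC medium. The alternative with the number as a block covered these arrays too. The alternatives were the number as a block, the compared groups alone, median centring, quantile normalization, array weights, a robust prior, clusters not averaged, no genes of chromosomes 8, X and Y, and leaving out each array.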

Additional observations from a re-analysis of the deposited data

Results flagged for a closer look

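Hnf4a was the only gene of the list whose difference between N2B27 and ESC medium differed between the genotypes by the test of the interaction, at -1.06 (SE 0.18, adjusted p = 0.0172, limma). The difference between media was -0.96 in mutant cells, lower on 3 of 3 arrays than on either array in ESC medium, and 0.09 in control cells, where the groups overlapped. Over its 18 alternatives the interaction ran from -1.15 to -0.86, with adjusted p from 0.00242 to 0.101. It was not called without mutant replicate 2 or 3 in ESC medium or after quantile normalization. The value rests on 2 mutant arrays in ESC medium.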

How the results depend on the processing

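Under 18 or 19 alternatives per comparison, no difference of the 42 genes that was called in the main or the alternative fit changed direction. Of 3938 refitted differences, 3826 kept their side of the threshold, 60 lost a call and 52 gained one. Hnf4a in mutant cells and Dab2 in control cells, both between media, kept their calls throughout. Counts below give higher, then lower, genes of the list. In mutant cells between media, 6 and 2 became 2 and 1 with the compared groups alone, 2 higher after quantile normalization and 5 lower with array weights (1 to 6 and 1 to 4 on leaving out 1 array). In control cells between media, 1 and 1 became 3 higher with the replicate block, 2 and 3 with the compared groups alone and 5 and 6 with array weights (1 to 3 and 0 to 6 on leaving out 1 array). Between genotypes in N2B27, 0 and 1 became 1 higher with the replicate block, 0 lower under median centring, in the compared groups alone and without chromosomes 8, X and Y, and 2 lower with array weights (0 to 1 and 0 to 1). Between genotypes in ESC medium, 1 and 0 became 1 lower with the replicate block (Wnt5a, adjusted p = 0.0386), 1 lower with the compared groups alone (Wnt3) and 6 lower with array weights (0 to 1 and 0 to 2). In the interaction, 0 and 1 became 1 higher with the replicate block (Eomes, 1.80, adjusted p = 0.0398), 2 higher with array weights and 0 lower after quantile normalization (0 to 1 and 0 to 1).

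Over all genes, calls between media numbered 5018 in mutant cells (2720 to 5956 on leaving out 1 array, and 7689 with array weights) and 5205 in control cells (3987 to 6044). Between genotypes in N2B27 the 1144 calls became 397 with the compared groups alone, 2882 with array weights and 610 without chromosomes 8, X and Y (454 to 1251). In ESC medium the 1224 became 498 after quantile normalization, with 66.5% higher in place of 50.2%, 3138 with array weights and 766 without chromosomes 8, X and Y, with 35% higher (304 to 1707). The 422 interaction calls became 657 with the replicate block, 183 after quantile normalization and 1782 with array weights (59 to 633). The causes were not tested. Where an arm was left with 1 array, its spread was taken from the other groups. With 2 or 3 arrays a group and no brightness, small changes of dim genes cannot be shown.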
